A study of Rattus norvegicus with 119 samples.

Results

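The circadian clock genes described here were Per1, Per2, Per3, Cry1, Cry2, Dbp, Nr1d1, Nr1d2, Tef and Clock, measured in rat hippocampus after lead exposure early in life. Each was taken as the probe set (a group of array probes that report 1 transcript) whose only gene symbol was that gene. All 10 genes had such a probe set, 1 each, among 14506 gene symbols and 29214 probe sets. A further 11 clock genes with a probe set were set beside them. The question was whether groups of animals differed in these genes by lead exposure, by strain or sex, or in the way that groups collected at other times of day would.

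As background, the mammalian clock is a feedback loop of transcription. CLOCK pairs with BMAL1 and switches on the Per and Cry genes through DNA elements called E-boxes, and the PER and CRY proteins return to the nucleus and hold CLOCK and BMAL1 back. In a linked loop, the nuclear receptors REV-ERB alpha and beta, made by Nr1d1 and Nr1d2, repress Bmal1. DBP and TEF are output factors that bind D-box elements, where the repressor NFIL3 competes with them. In rodent tissue the transcripts of Dbp, Tef, Nr1d1, Nr1d2 and the Per genes swing roughly together over the day, those of Bmal1, Npas2, Clock and Nfil3 roughly opposite, and Cry1 peaks later. Dbp has a wide daily swing, while Clock changes little. Per1 also responds quickly to neuronal activity and to glucocorticoids. The hippocampus, a region for learning and memory, has such a clock, which follows the master clock of the hypothalamus.

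The study measured hippocampal RNA of 40 Fischer, 40 Long Evans and 39 Sprague Dawley rats, with 1 array per animal. Males and females of each strain received food with lead acetate, at 250 or 750 ppm, perinatally or postnatally, and controls had food without it. Perinatal animals were exposed through dams that received lead from 10 days before breeding until weaning, and postnatal animals were exposed from birth to postnatal day 45. All were collected on postnatal day 55 as flash-frozen tissue, so every exposed group had been off lead food for some time. Crossing strain, sex, period and dose gave 30 groups of 4 animals, except for 3 Sprague Dawley male controls.

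Neither the time of day at collection nor the litter was given in the labels, so p-values measure the spread between these animals, some of which may be littermates. The genes for hippocampal neurons were high in every array (Neurod6 from 11.53 to 12.10 and Wfs1 from 11.52 to 12.07, log2), whereas choroid plexus genes varied widely (Ttr from 8.02 to 13.77). Array medians ran from 7.355 to 7.566. The X-linked genes of 8 arrays went against the sex on their label, 3 in Long Evans and 5 in Sprague Dawley. In Long Evans they were male control replicate 4 and female control replicates 1 and 3. In Sprague Dawley they were perinatal 750 ppm male replicate 4, postnatal 750 ppm male replicate 2, postnatal 750 ppm female replicates 2 and 4, and replicate 2 of the female controls. Within the groups of Fischer and Sprague Dawley, arrays also stood apart by the number in their titles, and each result that this changes is given with it as a block. Each group also had its own run of numbers, and the block does not take off differences between groups. In bulk tissue, fewer cells of a type and less RNA per cell cannot be told apart.

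The sequences before the start of 3 of these genes are printed 5′ to 3′ on the gene's strand from RefSeq (build GRCr8). Per2 is shown for its D-box, the element that DBP and TEF bind, which is in capitals and lies 192 to 185 bases before the start used, a start that is itself within the annotated gene (chr9:99497070-99497243, minus strand). Tef is shown as the 30 bases around its E-box, the CLOCK element, in capitals (chr7:115206617-115206646, plus strand), which lies 198 to 193 bases before the start used and within the annotated gene. Dbp (chr1:105312006-105312255, plus strand) is shown because most of the results below turn on it.
Per2: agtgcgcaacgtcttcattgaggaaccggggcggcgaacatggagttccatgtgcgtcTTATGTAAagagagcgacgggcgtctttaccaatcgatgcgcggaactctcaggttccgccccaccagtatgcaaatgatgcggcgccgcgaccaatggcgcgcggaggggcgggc
Tef: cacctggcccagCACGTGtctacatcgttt
Dbp: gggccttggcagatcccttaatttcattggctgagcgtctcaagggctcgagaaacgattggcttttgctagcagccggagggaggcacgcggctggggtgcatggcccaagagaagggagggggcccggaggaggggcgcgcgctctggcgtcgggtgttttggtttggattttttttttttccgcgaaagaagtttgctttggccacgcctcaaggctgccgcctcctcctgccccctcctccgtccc

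Windows were the 250 bases before the start used, searched on both strands. The E-box CACGTG was found in 1 of the 9 clock genes with a window (Tef), against 5.59% of all 33469 windows. The D-box TTANGTAA was found in 1 of 9 (Per2), against 2.04% of all windows. The cyclic AMP element TGACGTCA, which occurred in 1.59% of all windows, and the REV-ERB element core TAGGTCA, which occurred in 2.26%, were found in 0 of 9. Among 9 windows of the other clock genes, Bhlhe40 and Bhlhe41 held the E-box and Bmal1 held the TAGGTCA core. These matches describe letters only, and the windows leave out elements further away. The windows of Per1 (chr10:54304126-54304375), Per3 (chr5:166777801-166778050) and Tef lay wholly within the annotated gene. Bases before the outer start of these genes were thus not searched. No window was used for Cry1.

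The clock genes differed little between exposed and control animals. Every exposed group was set against same-sex controls of its strain, which gave 24 differences per gene and 240 in all, and the 4 comparisons within a strain and sex share their controls. None of the 240 passed an adjusted p under 0.05 in limma. Of the 240, 21 (8.75%) had an unadjusted p under 0.05, with 6 in Fischer, 9 in Long Evans and 6 in Sprague Dawley. The share of all probe sets at an unadjusted p under 0.05 was not counted. Counts at that level, here and below, thus have no background to be read against. Among all probe sets, 0.00214% of the tests were called in Fischer, 0.0424% in Long Evans and 0.00813% in Sprague Dawley, so a count of 0 does not set the clock genes apart from the rest. The count was also 0 in Long Evans and in Sprague Dawley without the arrays that go against their sex label. Differences ran from -0.28 to 0.25 on the log2 scale, which is 0.825-fold to 1.19-fold, and 11 of the 240 were over 0.2 in size. The 95% interval of a single difference reached 0.15 (median) to 0.29 (widest) to either side, so shifts smaller than this were not resolved. These intervals are not adjusted for the number of probe sets tested, and larger shifts could be missed as well. Even the largest, -0.28, was not called.

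The output gene Dbp leaned most often one way, with 21 of its 24 exposed-minus-control differences positive. Per3 and Nr1d2 had 19 positive differences each and Per1 had 18. Clock leaned the other way, with 6 of 24 positive, and Tef had 9 of 24. Because 4 comparisons rest on each control group, these counts are not 24 separate observations. The other clock genes gave 0 called of 264 tests in limma, with 19 at an unadjusted p under 0.05 and differences from -0.27 to 0.31.

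**Figure D1:**
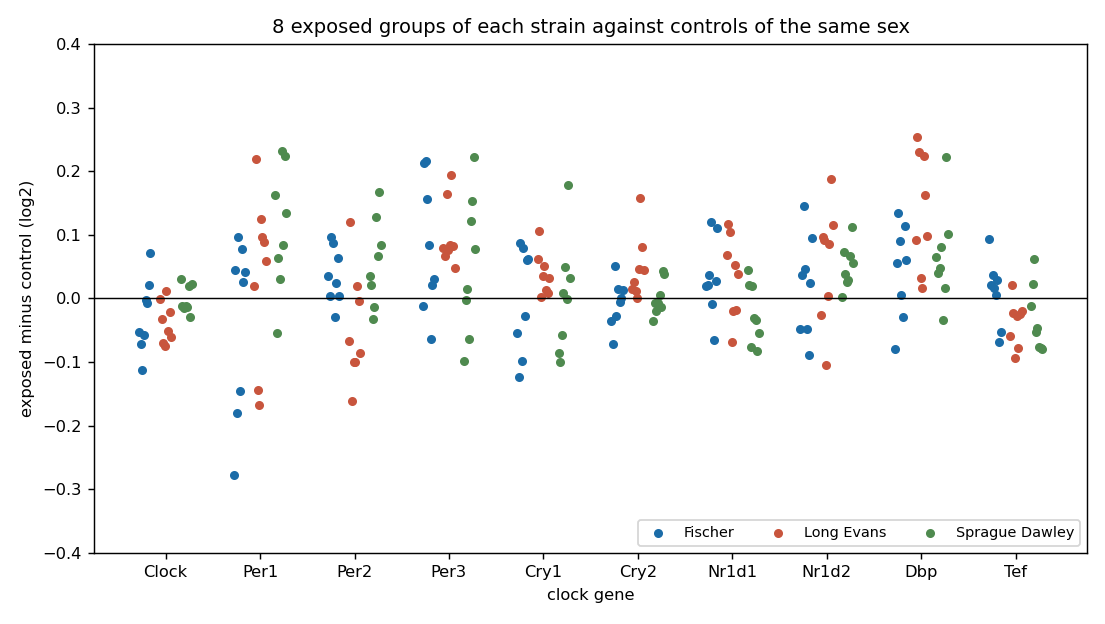
Exposed-minus-control difference (log2) of each clock gene in the 8 exposed groups of each strain, 1 point per exposed group, with colours for the strains. All 240 points lie between -0.28 and 0.25, and the points of Dbp and Per3 lie mostly above 0 while those of Clock lie mostly below it.

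Dbp (chr1:105312256-105317205 in GRCr8), the output factor that carries clock phase to other genes, differed among the 10 Long Evans groups. In Long Evans perinatal 750 ppm females its log2 values were 12.07, 12.00, 11.77 and 11.91, against 11.82, 11.53, 11.67 and 11.71 in female controls. In Long Evans perinatal 750 ppm males they were 11.94, 11.95, 12.02 and 11.88, against 11.77, 11.74, 11.68 and 11.70 in male controls. The male groups did not overlap, and 3 of the 4 exposed females were above all 4 female controls.

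The remaining Long Evans groups were spread between these. Postnatal 250 ppm females had 12.00, 11.92, 11.84 and 11.89, and postnatal 250 ppm males had 11.82, 11.95, 11.84 and 11.93, all above the highest value of their controls. Postnatal 750 ppm females had 11.77, 11.70, 11.76 and 11.63, within the range of female controls. Postnatal 750 ppm males had 11.80, 11.83, 11.84 and 11.82, a narrow range just above male controls. Perinatal 250 ppm animals had 11.74, 11.75, 11.79 and 11.82 in females and 11.88, 11.78, 11.70 and 11.59 in males, which overlapped their controls. In both sexes Dbp was thus higher at 750 than at 250 ppm after perinatal exposure and lower at 750 than at 250 ppm after postnatal exposure, an interaction that was not tested.

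The largest single difference of Dbp was in Long Evans perinatal 750 ppm females, at 11.94 ± 0.13 against 11.68 ± 0.12 in female controls (SD, n = 4 each). That was 0.25 higher (SE 0.06), with an adjusted p of 0.092 in limma, and it passed with array weights (0.26, adjusted p = 0.0223) or without replicate 3 of the exposed group (0.31, adjusted p = 0.0372). In males the same exposure gave 11.95 ± 0.06 against 11.72 ± 0.04 in controls (SD, n = 4 each), 0.22 higher with an adjusted p of 0.27 in limma. Among these controls, female replicates 1 and 3 and male replicate 4 went against their sex label by X-linked genes. Postnatal 250 ppm was 0.23 above controls in females (adjusted p = 0.57 in limma) and 0.16 above in males (0.71). Other gene lists had these values in the same comparisons. The 7 choroid plexus markers had a median difference of -0.87 in perinatal 750 ppm females and -1.01 in perinatal 750 ppm males, with 0 called in each. For the 11 probe sets of 10 glucocorticoid-induced genes the medians were 0.34 (1 called) and 0.07 (0 called). The part of these lists in the Dbp values was not tested.

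Over the 8 exposed groups of Long Evans together, Dbp averaged 11.84, against 11.70 in controls. The difference of 0.14 (95% interval 0.07 to 0.21) had an adjusted p of 0.078 in limma and so missed the threshold, while 0.212% of all probe sets were called in this comparison. It passed with array weights (0.14, adjusted p = 0.046) and when low probe sets were left out (adjusted p = 0.042). It also passed without female control replicate 1 (adjusted p = 0.0369), without female perinatal 750 ppm replicate 3 (0.0355) and without male perinatal 250 ppm replicate 4 (0.0426). Without the arrays that go against their sex label it was 0.17 (adjusted p = 0.14). Per3 was next at 0.10 (adjusted p = 0.51 in limma). Of the 10 clock genes, 0 were called in limma and 2 (Dbp and Per3) had an unadjusted p under 0.05.

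In the same Long Evans comparison, lists of other genes had these values. All 11 probe sets of the 10 glucocorticoid-induced genes were positive with a median of 0.13 and 1 called. All 9 immediate early genes were negative with a median of -0.37 and 2 called lower. All 6 probe sets of the 5 oligodendrocyte markers were positive with a median of 0.21. Of these 6, 4 were called higher (3 with the label-number set as a block). Their mean level ran from 11.22 to 11.41 in the exposed Long Evans groups, against 11.13 and 11.16 in the control groups. The choroid plexus markers had a median of -0.37 with 0 of 7 called, while the 10 clock genes had a median of 0.04 and all probe sets 0.001. Whether any of these lists bears on Dbp was not tested.

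In Fischer and Sprague Dawley the mean lead effect was smaller still. It was called for 0 of 10 clock genes in each strain in limma, with 0 at an unadjusted p under 0.05, against 0% of all probe sets in Fischer and 0.0171% in Sprague Dawley. The largest values were 0.08 for Per3 in Fischer and 0.11 for Per1 in Sprague Dawley, each with an adjusted p of 1.0 in limma. The lead effect itself was not shown to differ between strains: 0 of 10 genes were called for Long Evans minus Fischer, Sprague Dawley minus Fischer or Long Evans minus Sprague Dawley in limma, with 0 at an unadjusted p under 0.05. The background was 0.13%, 0.0103% and 0.0787% of probe sets. The largest size of these strain differences in effect was 0.15, for Per1 in Sprague Dawley minus Fischer.

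**Figure D2:**
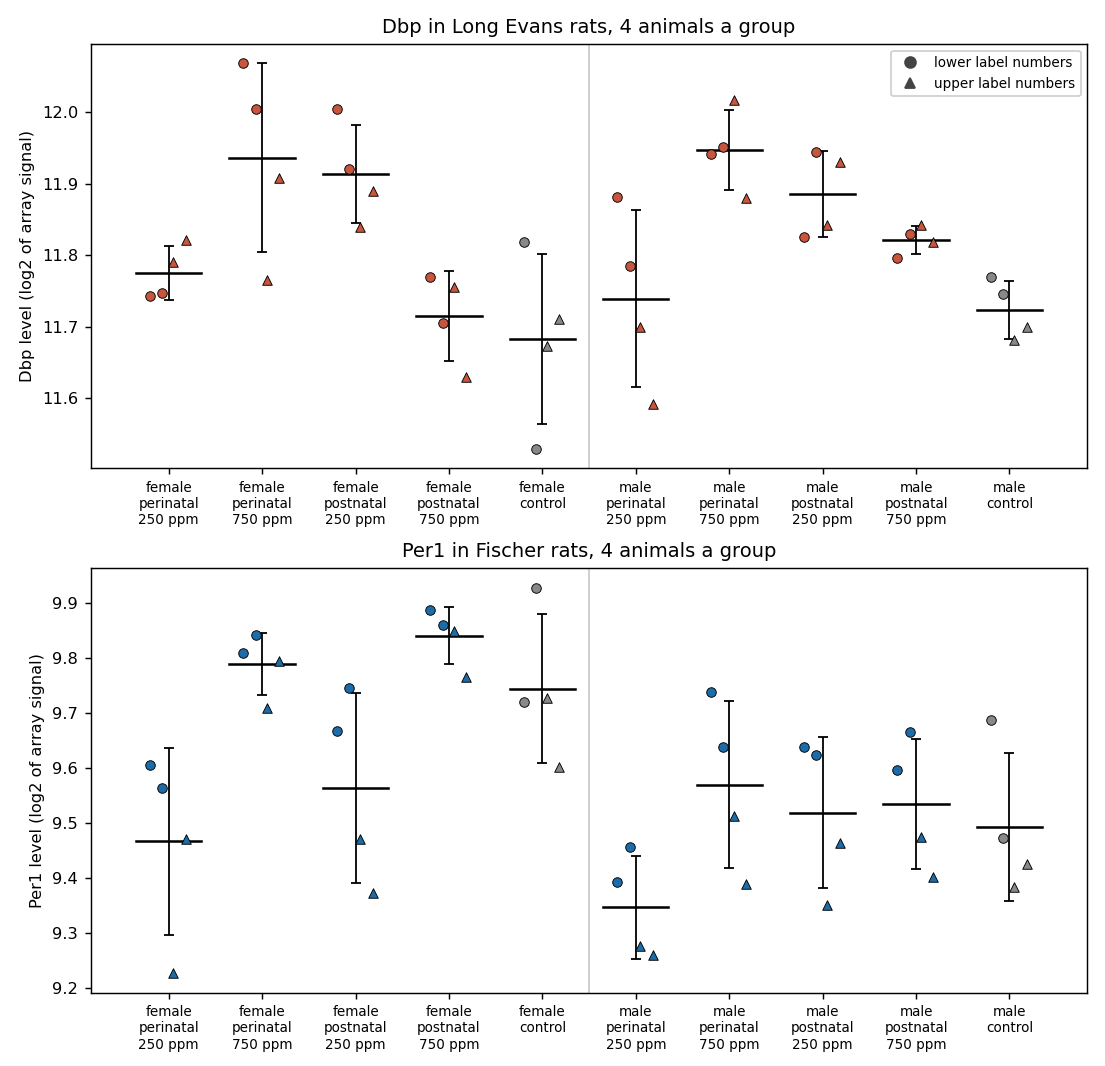
Log2 level of Dbp in Long Evans (top) and of Per1 in Fischer (bottom) in every animal of each group, with exposed groups left of their controls, which are grey. Circles are the lower and triangles the upper label numbers of a group, lines are means and bars are SD. Dbp is at 11.88 to 12.02 in Long Evans perinatal 750 ppm males, against 11.68 to 11.77 in male controls.

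Asked whether groups differed in any way, a moderated F test over the 10 groups of a strain called 1 clock gene, Dbp in Long Evans (F = 5.53, adjusted p = 0.031 in limma), where 0.472% of all probe sets were called. The widest gap between Long Evans group means of Dbp was 0.26, or 1.2-fold, between perinatal 750 ppm males (11.95) and female controls (11.68). The call was lost when any of 9 single animals was left out (adjusted p from 0.0502 to 0.0657). These were female control 3, female perinatal 750 ppm 2 and 4, female postnatal 250 ppm 2, female postnatal 750 ppm 4, male control 3, and male perinatal 750 ppm 1, 2 and 3 (replicate numbers). It held without the arrays that go against their sex label (adjusted p = 0.0429), and was lost with only the lower (0.605) or only the upper label numbers (0.479). Per1 and Per2 in Long Evans had an unadjusted p under 0.05. Dbp group means spanned as much in the other strains, 0.25 in Fischer and 0.26 in Sprague Dawley (1.19-fold each), where it was not called. In Sprague Dawley males, Dbp was 12.23, 12.16, 11.96 and 12.02 with postnatal 250 ppm, against 12.02, 11.78 and 11.81 in controls. These groups overlapped, and the difference of 0.22 had an adjusted p of 1.0 in limma.

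In Fischer the F test called 0 clock genes in limma, with 4 (Dbp, Nr1d2, Per1 and Per3) at an unadjusted p under 0.05 and 0.0822% of all probe sets called. With the label-number set as a block it called Per1 (F = 15, adjusted p = 3.0e-05), against 0.219% of all probe sets, and without the block Per1 had F = 5.81 (adjusted p = 0.075, and 0.0411 without male control replicate 1). In Sprague Dawley it called 0, with 1 (Per3) at an unadjusted p under 0.05 and 0.024% of all probe sets called. Among the other clock genes the F test called Nfil3 in Fischer (F = 6.42, adjusted p = 0.036 in limma).

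Tef (chr7:115197180-115221930), the other D-box activator here, showed less. Its exposed-minus-control differences lay between -0.09 (Long Evans postnatal 750 ppm females, 10.25 against 10.35 in controls) and 0.09 (Fischer perinatal 250 ppm females, 10.43 against 10.33 in controls). Its group means spanned 0.11 in Fischer, 0.12 in Long Evans and 0.11 in Sprague Dawley. All its tests by lead, sex, dose and period had an adjusted p above the threshold.

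Per1 (chr10:54299002-54313804), the member of the repressor arm that also responds to neuronal activity, varied most between groups, with a span of Fischer group means of 0.49 (1.41-fold). In Fischer perinatal animals at 750 ppm its log2 values were 9.81, 9.84, 9.71 and 9.79 in females, against 9.61, 9.56, 9.23 and 9.47 in females at 250 ppm. In males they were 9.74, 9.64, 9.51 and 9.39 at 750 ppm, against 9.39, 9.46, 9.28 and 9.26 at 250 ppm. The perinatal females did not overlap, and the perinatal males overlapped at the low end of the 750 ppm values.

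Among postnatal Fischer females, values were 9.89, 9.86, 9.85 and 9.77 at 750 ppm, against 9.67, 9.75, 9.47 and 9.37 at 250 ppm, again without overlap. Postnatal males had 9.6, 9.66, 9.47 and 9.40 at 750 ppm, against 9.64, 9.62, 9.35 and 9.46 at 250 ppm, which covered almost the same range. Controls had 9.72, 9.93, 9.73 and 9.6 in females and 9.69, 9.47, 9.38 and 9.43 in males. Over both sexes, the lowest, median and highest values were 9.38, 9.64 and 9.93 in controls (n = 8), 9.23, 9.47 and 9.75 at 250 ppm and 9.39, 9.72 and 9.89 at 750 ppm (n = 16 each). At 250 ppm, 5 of 8 females thus lay below all 4 female controls, whose range overlapped that of the 750 ppm females. Male controls overlapped both doses.

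Per1 in Fischer averaged 9.68 at 750 ppm and 9.47 at 250 ppm, a difference of 0.21 (SE 0.05) with an adjusted p of 0.070 in limma, and no clock gene but Per1 had an unadjusted p under 0.05. With the label-number set as a block the adjusted p was 9.0e-05 (1 of 10 called). By background, 0.0719% of all probe sets were called without the block and 0.222% with it. Within the lower label numbers the difference was 0.17 (adjusted p = 0.25 in limma) and within the upper 0.25 (0.12). It passed with array weights (0.23, adjusted p = 0.025), without low probe sets (0.038) and after quantile normalization (0.038), and also without any of 4 single animals: female perinatal 250 ppm replicate 1 (0.0449), female postnatal 250 ppm replicate 2 (0.0327), male perinatal 750 ppm replicate 4 (0.0329) and male postnatal 750 ppm replicate 4 (0.0481). Against controls, Per1 in Fischer perinatal 250 ppm females was 0.28 lower (9.47 against 9.74, unadjusted p = 0.0046, adjusted p = 1.0 in limma).

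Fischer females also had more Per1 than males, at 9.68 against 9.49. The difference of 0.19 had an adjusted p of 0.064 in limma (1 of 10 at an unadjusted p under 0.05, 0.0822% of all probe sets called). With the block it was 5.5e-05 (1 of 10 called, 0.202% of all probe sets). Female values ran from 9.23 to 9.93 with a median of 9.72, and male values from 9.26 to 9.74 with a median of 9.47. Within the lower label numbers the difference was 0.17 (adjusted p = 0.31 in limma) and within the upper 0.20 (0.32). It passed after quantile normalization (adjusted p = 0.045), and without any of 6 single animals: female control replicate 4 (0.0369), female perinatal 250 ppm replicate 3 (0.0170), female postnatal 250 ppm replicate 4 (0.0279), male control replicate 1 (0.0280), male perinatal 750 ppm replicate 1 (0.0331) and male postnatal 750 ppm replicate 2 (0.0430). Beside this sex difference, 9 of the 11 probe sets of 10 glucocorticoid-induced genes were positive (median 0.17, 1 called, 3 with the block). Of 9 immediate early genes, 7 were positive (median 0.13, 0 called, 2 with the block). All 7 choroid plexus markers were positive with a median of 0.42 and 0 called, and all probe sets had a median of 0.014. The part of these lists in the Per1 difference was not tested.

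In the same dose comparison in Fischer, lists of other genes gave the following counts. Of 9 immediate early genes, 8 were higher at 750 ppm (median 0.44, all probe sets -0.004). Of the 11 probe sets of 10 glucocorticoid-induced genes, 1 was higher too (4 with the block, median 0.14). The choroid plexus markers had a median of 0.95 with 0 of 7 called, and their mean level ran from 8.72 to 10.18 over the Fischer groups. The 14 probe sets of 7 temperature-responsive genes, most of them for Hspa8 alone, gave 0 calls and a median of -0.01. Nfil3, the D-box repressor, was higher at 750 ppm too (7.95 against 7.66, difference 0.29, adjusted p = 0.0063 in limma). The 10 clock genes as a list had a median of 0.002. Whether these lists account for Per1 was not tested.

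In the other strains Per1 showed no called difference by exposure. In Long Evans perinatal 750 ppm females it was 9.85, 9.99, 10.03 and 10.18, against 10.05, 9.79, 9.53 and 9.81 in female controls. These ranges overlapped, and the difference of 0.22 had an adjusted p of 0.75 in limma. Sprague Dawley male controls had 9.30, 9.25 and 9.40, the lowest group of that strain, and perinatal 250 ppm males had 9.57, 9.47, 9.53 and 9.61. The difference of 0.23 between these groups, which do not overlap, had an adjusted p of 1.0 in limma, and it rests on 3 control animals.

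Per2 (chr9:99454828-99497069), a core repressor whose promoter carries the D-box printed above, had group means that spanned 0.12 in Fischer, 0.29 in Long Evans and 0.17 in Sprague Dawley. In Long Evans females it was 9.12, 9.17, 9.19 and 9.38 with perinatal 750 ppm and 8.98, 8.81, 8.86 and 9.08 with postnatal 250 ppm, against 9.21, 9.05, 8.96 and 9.16 in controls. The exposed groups thus lay on either side of controls and each overlapped them. The largest differences were -0.16 in those postnatal 250 ppm females and 0.17 in Sprague Dawley postnatal 250 ppm males, each with an adjusted p of 1.0 in limma.

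Per3 (chr5:166740914-166778243), which is less needed for the core rhythm than the other Per genes in mice, had the most exposed-group differences at an unadjusted p under 0.05 (7 of 24, none called). In Sprague Dawley postnatal 250 ppm males it was 9.20, 9.19, 9.09 and 9.32, against 8.94, 8.99 and 9.0 in controls. The groups did not overlap, and the difference of 0.22 had an unadjusted p of 0.0010 and an adjusted p of 1.0 in limma. In Fischer perinatal 750 ppm females it was 9.06, 9.10, 9.01 and 9.14, against 8.92, 9.02, 8.89 and 8.62 in controls. The control value of 8.62 was the lowest of all 40 Fischer animals. In Long Evans perinatal 750 ppm males it was 9.23, 9.13, 9.05 and 9.18, against 9.01, 9.05, 8.73 and 9.03 in controls, a difference of 0.19 (adjusted p = 0.52 in limma).

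The cryptochromes Cry1 (chr7:20417526-20481791) and Cry2 (chr3:98830479-98860437), partners of the PER proteins in repression, had smaller differences. Cry1 differences from controls ran from -0.12 in Fischer perinatal 750 ppm females to 0.18 in Sprague Dawley postnatal 250 ppm males, each with an adjusted p of 1.0 in limma. In those Sprague Dawley males it was 7.86, 7.84, 7.68 and 7.86, against 7.46, 7.69 and 7.74 in controls, with an overlap at 1 animal. Cry2 differences ran from -0.07 in Fischer perinatal 750 ppm females to 0.16 in Long Evans perinatal 750 ppm males. In those Long Evans males it was 10.71, 10.75, 10.69 and 10.83, against 10.68, 10.56, 10.45 and 10.66 in controls, without overlap and with an adjusted p of 0.41 in limma. Cry2 had the smallest span of group means among the 10 genes in any strain, 0.06 in Sprague Dawley.

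The REV-ERB genes Nr1d1 (chr10:84224599-84231812) and Nr1d2 (chr15:9955034-9981329), which repress Bmal1, had no called difference. Nr1d1 differences ran from -0.08 in Sprague Dawley postnatal 250 ppm males to 0.12 in Fischer postnatal 750 ppm females, and none had an unadjusted p under 0.05. Nr1d2 differences ran from -0.10 in Long Evans postnatal 750 ppm females to 0.19 in Long Evans postnatal 250 ppm males. In Fischer postnatal 250 ppm females Nr1d2 was 10.38, 10.38, 10.27 and 10.37, against 10.23, 10.26, 10.21 and 10.11 in controls. The groups did not overlap, and the difference of 0.15 had an adjusted p of 1.0 in limma. Perinatal Fischer animals had less Nr1d2 (10.20 against 10.31 in postnatal animals, difference -0.11, adjusted p = 0.37 in limma) and less Dbp (11.80 against 11.91, difference -0.11, adjusted p = 0.62).

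Clock (chr14:32262747-32346872), the activator partner of BMAL1, had the fewest positive differences. They ran from -0.11 in Fischer postnatal 250 ppm females to 0.07 in Fischer postnatal 750 ppm males, and none had an unadjusted p under 0.05. Its group means spanned 0.11 in Fischer, 0.12 in Long Evans and 0.06 in Sprague Dawley. In Long Evans the lowest group was postnatal 750 ppm males at 10.42, 10.28, 10.42 and 10.39, against 10.40, 10.53, 10.36 and 10.47 in male controls, and these overlap.

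The remaining comparisons by sex, dose and period called 0 of 10 clock genes in limma. By sex, 2 had an unadjusted p under 0.05 in Long Evans (Clock and Per3) and 0 in Sprague Dawley, with 0.0856% and 0.0171% of all probe sets called. By dose, 0 did in Long Evans and 1 (Per1, -0.12) in Sprague Dawley, with 0.0548% and 0.00342% called. By period, 2 did in Fischer (Nr1d2 and Dbp), 2 in Long Evans (Per1, 0.16, adjusted p = 0.20, and Per2) and 1 in Sprague Dawley (Dbp, -0.09), with 0.00342%, 0.065% and 0.0411% called. The dose difference of Per1 thus had the opposite sign in Sprague Dawley (9.42 at 750 ppm, 9.54 at 250 ppm) to that in Fischer, and the difference between these dose effects was not tested.

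A shift in the time of collection would move many clock genes at once and in known directions. Each group was therefore described by how many of 7 genes that swing together (Dbp, Tef, Nr1d1, Nr1d2, Per1, Per2 and Per3) and of 4 that swing opposite (Bmal1, Npas2, Nfil3 and Clock) lay above or below the mean of their strain. At least 6 of the 7 above and 3 of the 4 below were seen in 2 of 30 groups, Fischer postnatal 250 ppm females and Long Evans perinatal 750 ppm males. The reverse was seen in 1 group, Fischer female controls, with 6 of 7 below and all 4 of the opposite set above. Any deviation counted, however small. In Fischer postnatal 250 ppm females, Nr1d1 was only 6.25e-05 and Tef only 0.0023 above the strain mean. In Long Evans perinatal 750 ppm males, Per1 was 0.0024 and Nr1d2 0.0089 above it. Bmal1 was 0.0064 above it in Fischer female controls. Leaving out these values, neither of the 2 groups named first reaches 6 of the 7. Fischer female controls still met the rule without Bmal1, with 6 of the 7 below and Clock, Npas2 and Nfil3 above.

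Other groups showed part of this pattern. In Long Evans postnatal 750 ppm females all 7 genes were below the strain mean, but only 2 of the 4 opposite genes were above it. In Long Evans perinatal 750 ppm females, which had the highest Per1 and Per2 of the strain, 6 of the 7 were above, and so were all 4 of the opposite set. With postnatal 250 ppm, Sprague Dawley males, Sprague Dawley females and Long Evans females each had 5 of 7 above and 4 of 4 below. The reverse, 5 of 7 below and 4 of 4 above, was seen in Sprague Dawley postnatal 750 ppm males. The sizes were small: the span of group means within a strain was 0.18 in the median over the 30 pairs of gene and strain, and the SD within groups ran from 0.04 to 0.21. These counts were made on group means, carry no test, and say nothing of the actual clock time.

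**Figure D3:**
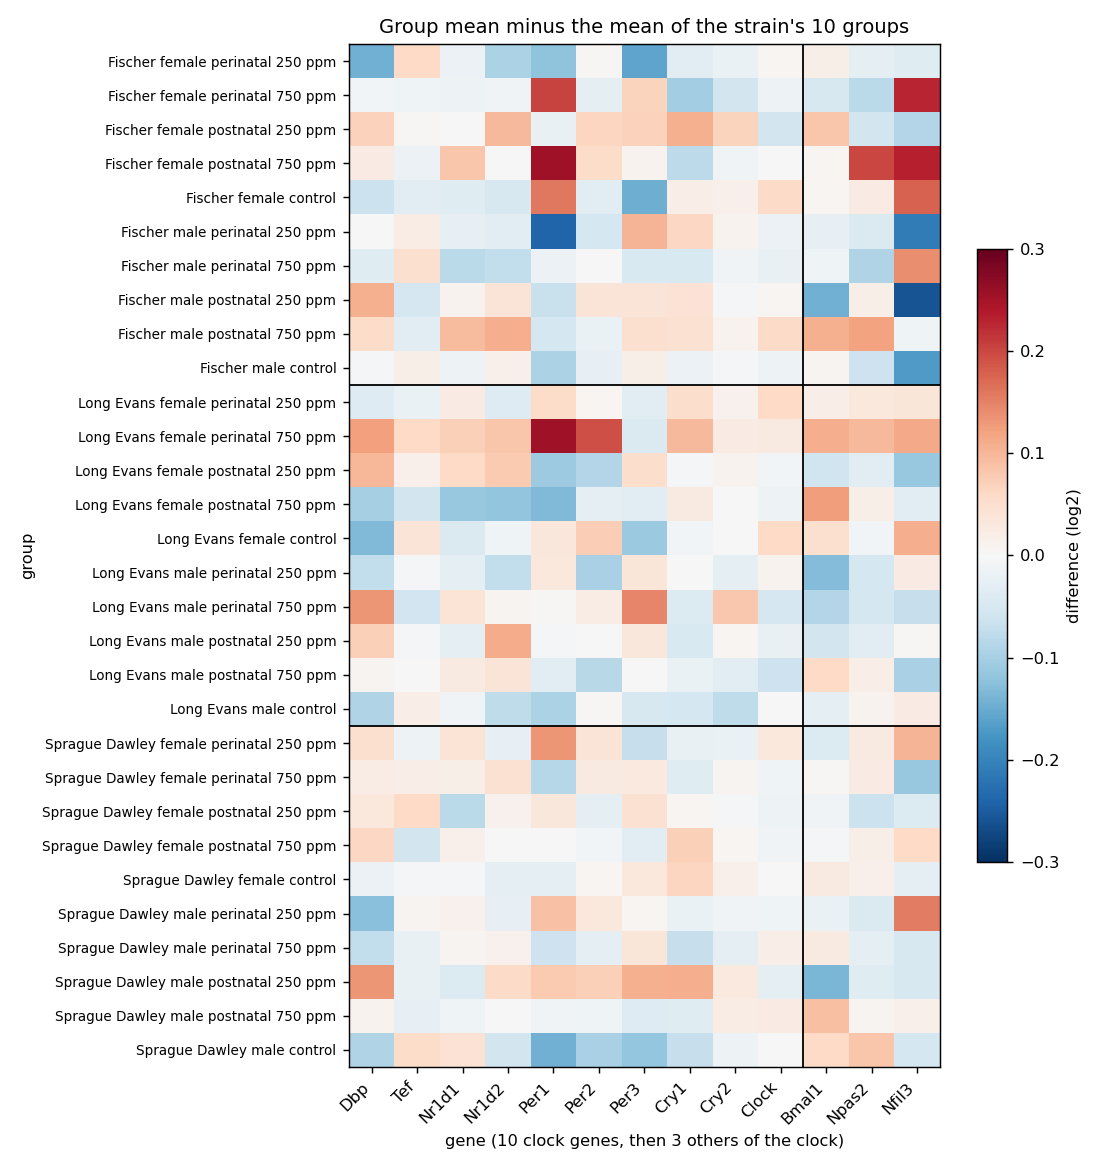
Deviation of each group mean from the mean of its strain's 10 groups (log2, colour scale from -0.3 to 0.3) with groups as rows and, as columns, the 10 clock genes followed by Bmal1, Npas2 and Nfil3. Few rows show 1 colour from Dbp to Per3 with the opposite colour from Clock to Nfil3, and the most intense cells belong to Per1 and Nfil3.

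The clock genes shared part of their variation over the 30 groups. After the strain mean was taken off, Pearson correlations of the 45 pairs ran from -0.53 to 0.75 with a median of 0.15. Of these, 6 were above 0.5 and 1 was below -0.5. Dbp and Nr1d2 were the closest pair (r = 0.75, Spearman 0.78), with 0.83 in Fischer, 0.79 in Long Evans and 0.65 in Sprague Dawley (n = 10 groups each). Dbp with Per3 followed at 0.61, and then Cry1 with Cry2 at 0.55, Dbp with Cry2 at 0.54 and Per1 with Per2 at 0.53.

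Pairs of opposite phase were less ordered. Clock and Per3 gave -0.53, and Dbp and Bmal1 gave -0.28, lying on opposite sides of the strain mean in 17 of 30 groups. By strain, Dbp with Bmal1 gave -0.14 in Fischer, -0.19 in Long Evans and -0.58 in Sprague Dawley. Per1 and Nfil3, which are of opposite phase in the textbook order, went the same way (r = 0.78, with 0.86 in Fischer, 0.68 in Long Evans and 0.67 in Sprague Dawley). All genes were read from the same arrays, and animals of a group may share dissection or collection time, so these values are descriptions.

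Within groups, over all animals and after the group mean and the label-number set were taken off, the correlations were weaker in range, from -0.29 to 0.52 with a median of 0.14, and 38 of 45 pairs were positive. Per1 and Per2 were the closest (0.52). Dbp and Nr1d2 gave 0.37 and Dbp and Nr1d1 gave 0.45. Dbp and Clock gave 0.47 within groups but -0.31 over group means, and Dbp and Bmal1 gave -0.10. Per1 and Nfil3 gave 0.32.

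The 5 genes outside the clock lists whose group means were most like Dbp were Mfap3l (r = 0.82), Acer2 (0.68), Sntg2 (0.67), Syt10 (0.64) and Fabp3 (0.64), out of 15300 probe sets with a single symbol. Those most opposite were Ptpru (-0.78), Spon2 (-0.64), Or5k15 (-0.63), Zfp142 (-0.62) and Mavs (-0.59). Over all animals within groups and label-number sets, the most like were Septin11 (0.60), Bdh1 (0.59), Abhd4 (0.57), Mxi1 (0.57) and Lgals9 (0.56). The most opposite were Tpd52l2 (-0.54), Synpr (-0.52), Fkbp1b (-0.50), Cox7a2 (-0.50) and Ndufa4 (-0.49). No gene appears on both the group and the animal lists.

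**Figure D4:**
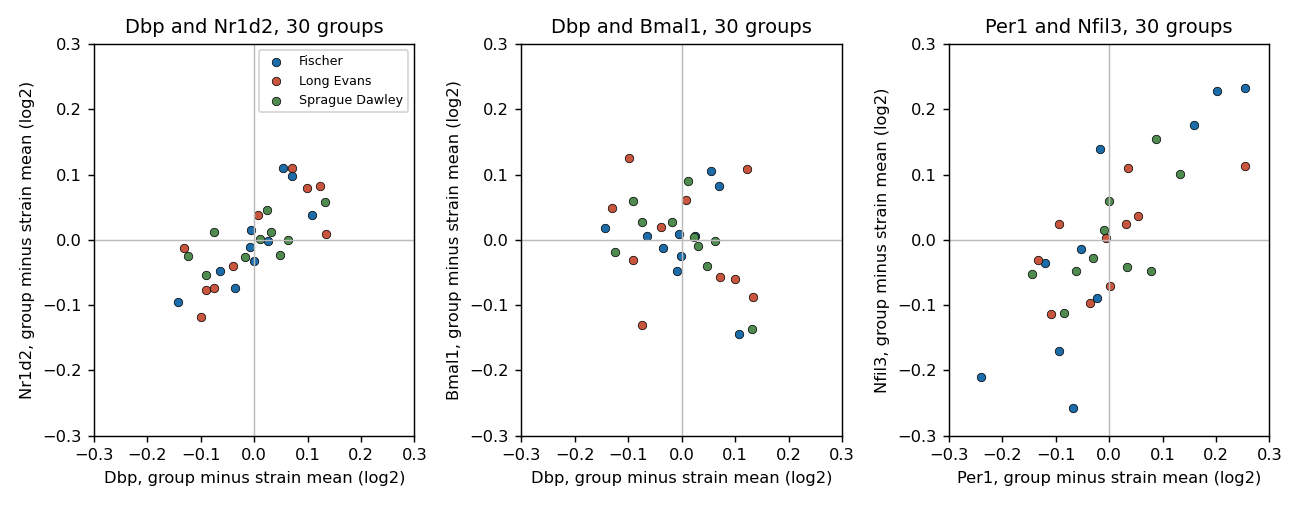
Deviations of group means from the strain mean (log2) for Dbp against Nr1d2, Dbp against Bmal1 and Per1 against Nfil3, 1 point for each of the 30 groups, coloured by strain. Dbp and Nr1d2 rise together (r = 0.75), Dbp and Bmal1 show a weak inverse relation (r = -0.28), and Per1 and Nfil3 rise together (r = 0.78).

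In Fischer, most clock genes differed by label number. Animals of each group were ranked by the number in their title and parted into upper and lower numbers, a split that cuts across the treatments. Between groups the numbers differed too. In Long Evans, controls had 1970 to 1977 and perinatal 750 ppm females 1978 to 1981. Perinatal 750 ppm males had 3444 to 3447, and the remaining exposed groups lay between 2821 and 2876. Sprague Dawley numbers (3789 to 4053) were above all Fischer numbers (3161 to 3376). The block works within groups, so differences that go with these runs cannot be told apart from those by group or strain. In Fischer, 8 of 10 clock genes differed in limma, 2 higher and 6 lower in the upper numbers, where 60.9% of all probe sets differed (18.6% higher and 42.3% lower). With such a background, the count is not particular to clock genes.

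Cry1 differed most. In the upper numbers its lowest, median and highest values were 7.40, 7.59 and 7.81, against 7.58, 7.94 and 8.04 in the lower (n = 20 each), a difference of -0.32 with an adjusted p of 1.5e-10 in limma. Tef went the other way, with 10.36, 10.47 and 10.70 in the upper numbers against 10.15, 10.24 and 10.47 in the lower (difference 0.24). Clock was higher as well (10.53 against 10.40). Nr1d1 was lower (10.64 against 10.84), as were Per1 (9.5 against 9.68), Per2 (8.92 against 9.04), Per3 (8.96 against 9.06) and Nr1d2 (10.22 against 10.28).

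Tef thus moved the other way from Nr1d1 and the Per genes, in a comparison where most probe sets differed. Whether collection time has a part in this was not tested. Dbp hardly differed (11.84 against 11.86, difference -0.01, adjusted p = 0.70 in limma), although after quantile normalization it was called at -0.08 (adjusted p = 0.0096). Cry2 did not pass either (0.02). Of the other clock genes, 7 of 11 were lower in the upper numbers (Bhlhe40, Bmal2, Csnk1e, Nfil3, Npas2, Timeless and Usp2), and 0 were higher. Over all probe sets the median difference was -0.07.

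In Sprague Dawley the upper numbers had lower Dbp (11.76 to 12.10 with a median of 11.87, n = 19, against 11.73 to 12.24 with a median of 12.04, n = 20) and lower Clock (10.43 against 10.52). The fitted differences were -0.15 (adjusted p = 0.00081 in limma) and -0.08 (0.0098). No clock gene was called higher, against 9.07% of all probe sets higher, 8.23% lower and 17.3% in all. Bmal1 (0.08) and Nfil3 (0.11) of the other clock genes were higher. Cry2, not called here (0.04, adjusted p = 0.099 in limma), passed after quantile normalization (0.05, 0.0239) and without the arrays that go against their sex label (0.05, 0.0379). In Long Evans 0 clock genes differed in limma, with 0 at an unadjusted p under 0.05 and 0.0993% of all probe sets called. What the label numbers stand for was not stated.

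Clock genes also differed by strain, as many probe sets did. Long Evans minus Fischer was called for 5 of 10, 4 higher and 1 lower, against 61.2% of all probe sets (27.8% higher and 33.4% lower). Sprague Dawley minus Fischer was called for 6 of 10, 4 higher and 2 lower, against 40.7% (19.8% and 20.8%). Long Evans minus Sprague Dawley was called for 8 of 10, 4 higher and 4 lower, against 62.2% (27.8% and 34.4%). With control groups only, 0, 1 and 3 were called. The share of all probe sets was not counted there, so these counts have no background to be read against.

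Markers of tissue differed by strain as well. Of 4 thalamus markers, 4 were higher in Sprague Dawley than in Fischer (median 0.41), 3 were higher in Long Evans than in Fischer (0.13), and 3 were lower in Long Evans than in Sprague Dawley (-0.22). Of 8 hippocampal neuron markers, 5 were higher and 1 lower in Long Evans minus Sprague Dawley (median 0.14), 2 higher and 4 lower in Sprague Dawley minus Fischer (-0.04), and 5 higher and 2 lower in Long Evans minus Fischer (0.06). Their part in the strain differences of clock genes was not tested.

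Per1 had the widest strain difference and a full order. It averaged 9.76 in Long Evans, against 9.46 in Sprague Dawley (difference 0.30, adjusted p = 4.7e-15 in limma) and against 9.59 in Fischer (0.17, adjusted p = 3.7e-07). Sprague Dawley was also below Fischer (-0.12). All 9 immediate early genes were higher in Long Evans than in Sprague Dawley (median 0.40) and than in Fischer (median 0.25), and whether that bears on Per1 was not tested.

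Dbp was higher in Sprague Dawley than in Fischer, at 11.96 against 11.85 (0.11). Long Evans, at 11.81, lay below Sprague Dawley by 0.15 (Long Evans minus Sprague Dawley, -0.15). The difference of Long Evans minus Fischer was not called (-0.04). Tef had the same top strain and a full order, at 10.47 in Sprague Dawley, 10.37 in Fischer and 10.31 in Long Evans, although Long Evans minus Fischer (-0.06) missed the threshold without Fischer female control replicate 4 (adjusted p = 0.0548 in limma). Per3 was highest in Sprague Dawley too (9.09), and 9.0 in Long Evans and 9.01 in Fischer did not differ beyond their spread.

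Nr1d1 was highest in Long Evans, at 10.89, against 10.74 in Fischer and 10.75 in Sprague Dawley, which were not told apart. Cry1 had the same top strain, at 7.85 in Long Evans against 7.74 in Fischer and 7.70 in Sprague Dawley. Nr1d2 was lowest in Sprague Dawley (10.16), below Fischer (10.25, difference -0.10), and Long Evans (10.21) was above Sprague Dawley by 0.06. That last call was lost without the arrays that go against their sex label (0.05, adjusted p = 0.074 in limma), after quantile normalization (0.097) and without Long Evans female control replicate 4 (0.0591) or male control replicate 4 (0.0538).

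Cry2 differed by little in each strain pair, at 10.69 in Sprague Dawley, 10.66 in Long Evans and 10.62 in Fischer. With control groups only, its Long Evans minus Fischer difference was -0.0052 (adjusted p = 0.92 in limma) and so changed sign. Its Long Evans minus Sprague Dawley call (-0.03) was lost without Long Evans male control replicate 3 (0.0564) or Sprague Dawley male control replicate 3 (0.0565). Per2 and Clock were not called in any strain pair. Clock in Long Evans minus Sprague Dawley (-0.04, adjusted p = 0.068 in limma) passed with the label-number set as a block (0.022), with array weights (0.0084), after quantile normalization (0.012) and without any of 4 single controls (0.0478 to 0.0499): Long Evans female 2 or male 2, and Sprague Dawley female 2 or male 3. Per2 in Long Evans minus Fischer (0.04, adjusted p = 0.080) passed with array weights (0.0429) and without Fischer male control replicate 1 (0.0441). The direction by strain was thus mixed within the loop: over all groups, Long Evans had more Per1, Nr1d1 and Cry1 and less Tef than either other strain. With control groups only, which hold fewer animals, none of these genes was called against Fischer. Against Sprague Dawley, Per1 and Tef were then still called, and Nr1d1 and Cry1 were not.

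**Figure D5:**
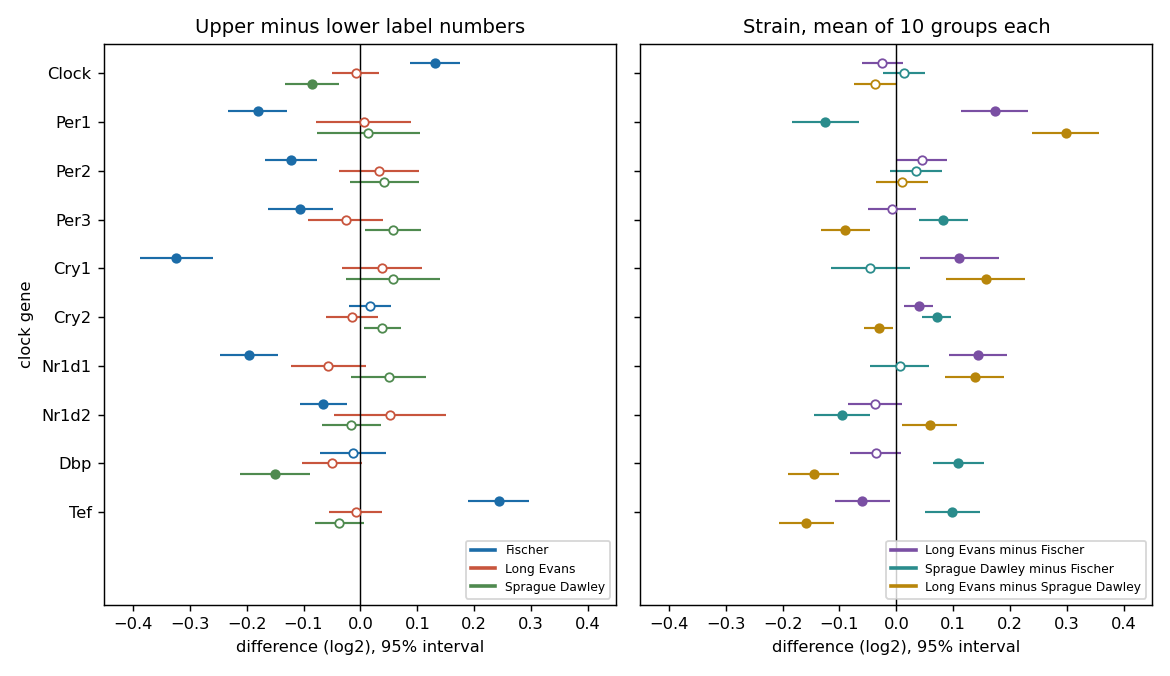
Differences of each clock gene (log2, with 95% intervals) between upper and lower label numbers in each strain (left) and between strains (right). Filled points had an adjusted p under 0.05 and open points did not. In Fischer, Cry1 lies at -0.32 and Tef at 0.24, and the widest strain difference is that of Per1, at 0.30 for Long Evans minus Sprague Dawley.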

How the data were processed

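Total RNA of hippocampus (miRNeasy extraction, biotin labelling and a standard Affymetrix protocol, per the labels) was measured on 1 array per animal. The deposited values were log2 levels of probe sets, and the submitters' processing notes name RMA and Partek. Versions and any batch correction were not given in the sources used here. Values ran from 2.293 to 14.18, 319 probe sets matched another in every array, and no arrays were identical. The number of arrays limits the precision.

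The tool for all tests was limma (version 3.58.1, in R 4.3.3 with data.table version 1.17.8), with 1 fit of 10 groups per strain and 1 of all 30 groups for strain differences, and the tests were tried on simulated data. P-values were two-sided and adjusted by Benjamini-Hochberg over all 29214 probe sets within a contrast, and calls were made at 0.05. The 240 tests of exposed groups were adjusted within each of 24 contrasts. Groups came from the labels. The label-number set (animals ranked by the number in the title within a group) was the block, since replicates have no other shared label. Other alternatives were array weights, quantile normalization, probe sets above the 40th percentile, all 30 groups in 1 fit, control groups only for strains, leaving out each animal (each control animal for strain differences), and leaving out arrays against their sex label. The fits within each set of label numbers, and another split of the group of 3, were added after seeing the data. Named were all 10 members, other clock genes where called or set against a member, and by rule the 5 genes most and least like Dbp by correlation. Members and lists were chosen with earlier results of these data known. Promoters came from RefSeq GRCr8 by gene symbol. Python 3.11.15, pandas 2.3.3, numpy 2.4.6 and matplotlib 3.10.9 were used for the rest.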

Additional observations from a re-analysis of the deposited data

Results flagged for a closer look

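In a group of 4 animals, a value was set apart when its gap to the nearest of the others exceeded 0.83 of the group's range (Dixon's 95% critical value). This held for 16 of 290 pairs of gene and group (5.52%), and chance gives about 1 in 20. The Sprague Dawley male controls, with 3 animals, were not tested.

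In the Per genes, the animals set apart were these. Per1 was 9.84 in Long Evans male perinatal 750 ppm replicate 4 (others 9.73 to 9.75) and 9.24 in Sprague Dawley female control replicate 2 (others 9.47 to 9.51). Per2 was 8.81 in Fischer female perinatal 750 ppm replicate 4 (others 8.99 to 9.0). Per3 was 9.02 in Fischer male perinatal 250 ppm replicate 3 (others 9.13 to 9.15), 8.83 in Long Evans female postnatal 250 ppm replicate 3 (others 9.12 to 9.14) and 8.73 in Long Evans male control replicate 3 (others 9.01 to 9.05).

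In the Cry genes, Cry1 was 7.98 in Fischer female postnatal 750 ppm replicate 2 (others 7.53 to 7.58), 7.56 in Long Evans male perinatal 750 ppm replicate 1 (others 7.88 to 7.93) and 7.68 in Sprague Dawley male postnatal 250 ppm replicate 3 (others 7.84 to 7.86). Cry2 was 10.66 in Sprague Dawley female postnatal 750 ppm replicate 4 (others 10.71 to 10.72).

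Nr1d1 was 10.49 in Sprague Dawley male postnatal 750 ppm replicate 2 (others 10.79 to 10.84). Nr1d2 was 10.27 in Fischer female postnatal 250 ppm replicate 3 (others 10.37 to 10.38), 10.56 in Long Evans male postnatal 250 ppm replicate 4 (others 10.23 to 10.28) and 10.06 in Sprague Dawley male postnatal 750 ppm replicate 3 (others 10.18 to 10.19). Tef was 10.47 in Sprague Dawley male postnatal 250 ppm replicate 4 (others 10.43 to 10.44), and Clock was 10.45 in Long Evans male perinatal 750 ppm replicate 4 (others 10.37). The arrays of the Per1 value in Sprague Dawley female controls, of the Cry2 value and of the Nr1d1 value go against their sex label. Long Evans male perinatal 750 ppm replicate 4 was set apart in both Per1 and Clock.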

How the results depend on the processing

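Of 181 alternative counts of called clock genes, 162 were within 1.5 times the count reported and 19 were not. Leaving out single animals gave 947 of 971 such counts. The F test in Fischer called 1 gene in place of 0 (Per1) with 1 fit of all 30 groups, array weights, the label-number set as block, probe sets above the 40th percentile or quantile normalization, and 0 to 1 without single animals. In Long Evans it called 0 in place of 1 (Dbp) with only lower or only upper label numbers, and 0 to 1 without single animals, 9 of which ended the call. The dose comparison in Fischer called 1 (Per1) in place of 0 with array weights, the block, the 40th percentile or quantile normalization, and 0 to 1 without single animals. The sex comparison in Fischer called 1 with the block or quantile normalization, and 0 to 1 without single animals. In Long Evans, the exposed groups gave 1 call (Dbp) in place of 0 with array weights, and the mean lead effect 1 with array weights or the 40th percentile, each 0 to 1 without single animals. With control groups only, strain calls were 0 in place of 5 for Long Evans minus Fischer. They were 3 in place of 8 for Long Evans minus Sprague Dawley and 1 in place of 6 for Sprague Dawley minus Fischer. These contrasts came from the same fit of all 30 groups but compared fewer animals per strain. The share of all probe sets called was not counted for them. Of 38 results of single genes, 1 reversed under an alternative, Cry2 in Long Evans minus Fischer with control groups only (-0.0052). For the other changes the cause was not tested. Time of collection and litter were not given. The unadjusted 95% interval of an exposed group against its controls reached 0.15 (median) on the log2 scale to either side. Differences larger than that also missed the adjusted threshold.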
